A study of Homo sapiens with 2 samples.

Results

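The nucleolar ribosome biogenesis genes described here are 40 genes for proteins that copy, modify, cut and fold ribosomal RNA (rRNA) in the nucleolus. They were listed by symbol for their known roles, by a rule that uses no measured value, although earlier results of these arrays were known when the list was drawn up, and 35 of the 40 had a probe set that could be assigned to 1 gene, among 19775 such genes in all. The cells were Ca9-22, established from a human squamous carcinoma of the gum, stably transduced with either the empty vector or the PTHLH vector, and both populations had been selected with blasticidin, which kills cells lacking the resistance gene of the vector. PTHLH is a secreted ligand related to parathyroid hormone, and the arrays compare cells with and without its over-expression. PTHLH itself is not analysed here, since no probe set could be assigned to it alone. Total RNA of 1 culture of each kind was hybridised to 1 Affymetrix U133 array, so no difference below has a replicate check, no test was run, and PTHLH and any other difference between the cultures cannot be told apart. Each array gave 54675 deposited intensities in arbitrary units, 1 for each probe set, that is, each set of short probes against the same transcript. The medians were 19.5 (empty vector) and 19.4 (PTHLH).

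A ribosome starts in the nucleolus, where RNA polymerase I copies the rRNA genes into a long precursor. Small nucleolar ribonucleoproteins (snoRNPs) guide methylation and pseudouridylation of the precursor, while assembly factors cut it and fold it with ribosomal proteins into a small and a large subunit. Growing cells devote much of their transcription to this pathway, and many of its genes are known targets of the transcription factor MYC, which binds a short DNA element called the E-box.

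The cell type on the label was checked with marker genes. Of 8 squamous epithelium markers, 5 were measured and all lay far above the array medians, with KRT5, a keratin of basal squamous cells, at 7823 (empty vector) and 10228 (PTHLH). The description fields of the labels contradict the titles, naming the line CX-1 and, for the PTHLH sample, another gene, and the titles and characteristics were followed. Of 6 intestinal epithelium markers, KRT20 and CDH17 lay below both medians and the others lay between 26.3 and 49.1, with log2 differences between the arrays from -0.66 to -0.05 over the 6. Of 6 fibroblast markers COL1A1 had 2437 and 1652, COL1A2, COL3A1 and LUM lay below both medians, and PDGFRB and DCN lay between 26.3 and 34.3. Above both medians were also 2 of 4 endothelial markers, and 0 of 3 measured leukocyte markers. The part of these markers in the results below was not tested. In such bulk RNA, fewer cells expressing a gene and less RNA per cell cannot be told apart.

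Most nucleolar genes were somewhat higher with PTHLH, and none was much lower. The log2 difference, always PTHLH minus empty vector, was above 0 for 31 of the 35 measured genes (88.6%), against 48.5% of all genes. At least 1.5-fold higher, the study's own fold threshold (0.585 on the log2 scale), were 6 of 35 (17.1%), namely RRS1, UBTF, UTP20, MRTO4, NOP16 and NOP14, against 1.97% of all genes. Since the list was drawn up with results known, these shares are a description and not independent evidence. At least 1.5-fold lower were 0 of 35, against 3.52% of all genes. The median log2 difference over the 35 was 0.33, a 1.25-fold higher intensity, and the median over all genes was 0.

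Of the 35 nucleolar genes, 34 lay above the median of both arrays, so the same shares were taken over the 12982 genes that met this condition. Of those, 2.5% were at least 1.5-fold higher, 4.36% were at least 1.5-fold lower and 49.3% had a difference above 0. These shares varied with level when all genes were grouped by mean level, from group 1 (lowest) to group 4 (highest). In group 4, which held 14 of the 35, 56.5% had a difference above 0 and 2.89% were at least 1.5-fold higher. In group 3, which held 18 of the 35, the shares were 46.7% and 2.81%. Among all genes ranked by log2 difference, 17 of the 35 nucleolar genes stood in the top 10% and 0 in the bottom 10%. The shift was broad and small: 18 genes had a log2 difference from 0.2 up to the threshold, and 7 differed by less than 0.1 in either direction.

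**Figure D1:**
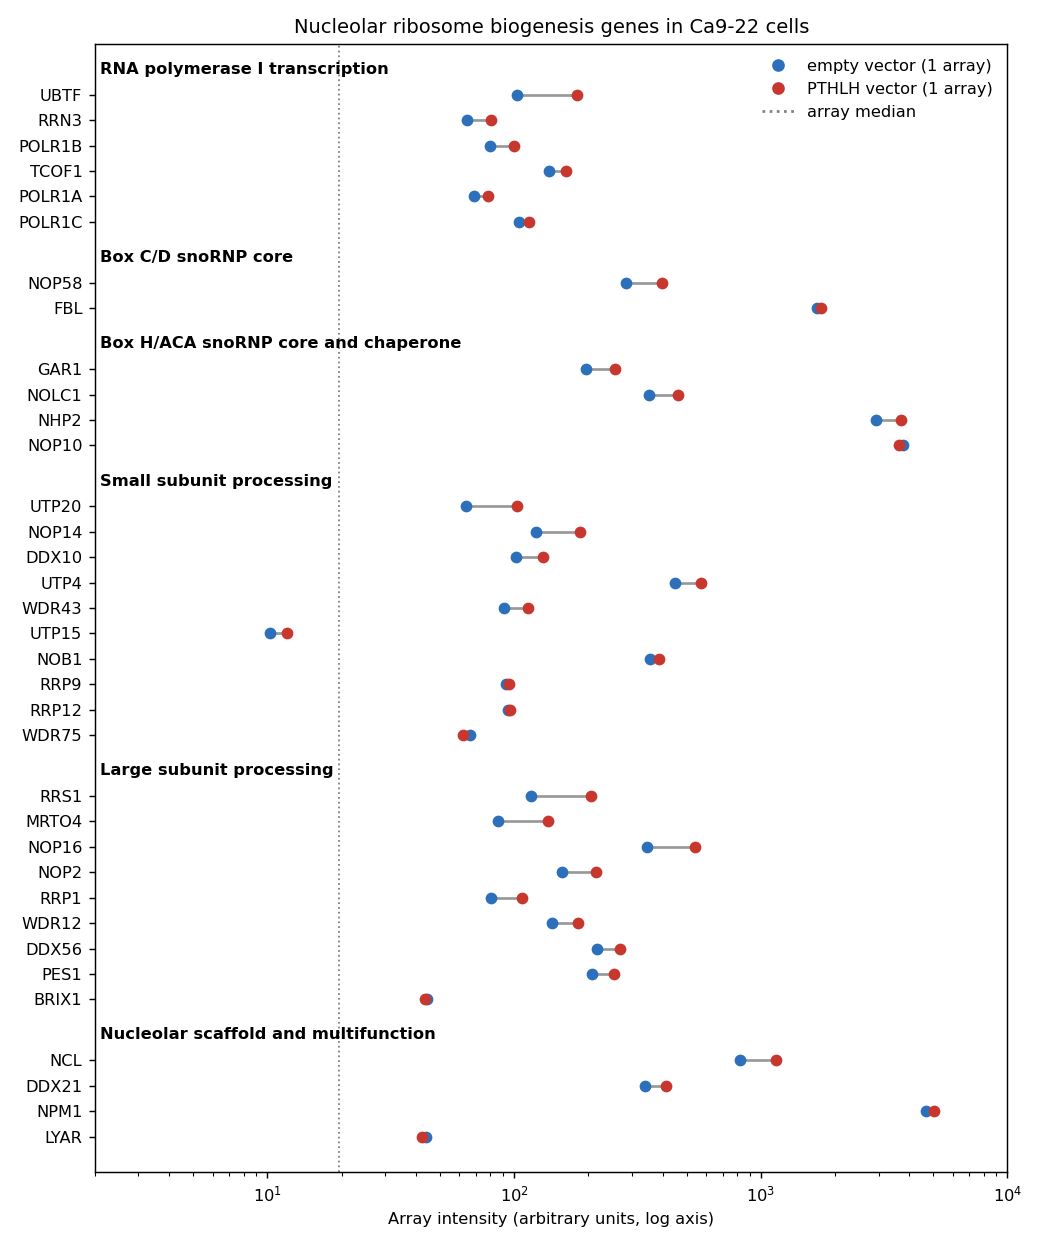
Intensity (arbitrary units, log axis) of the 35 measured nucleolar genes, grouped by role and ordered by log2 difference, with the empty vector array in blue and the PTHLH array in red (1 array each) and the array median dotted. The red point lies to the right of the blue one for 31 genes, with the widest gap for RRS1 (117 to 205), and of the 35 only UTP15 lies below the median on both arrays.

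All 6 measured genes of RNA polymerase I transcription were higher on the PTHLH array, with log2 differences from 0.13 to 0.80. UBTF, the factor that coats the rRNA genes and opens them for the polymerase, went from 103 to 179 (1.75-fold), and it was the only one past 1.5-fold. RRN3, which brings the polymerase to the promoter, went from 64.1 to 80.8, a log2 difference of 0.33, by its 1 probe set that is not also annotated to other genes. The subunits stood closer together: POLR1B, the second largest subunit, went from 80.0 to 100.3 (0.33 on the log2 scale). POLR1A, the largest, went from 68.6 to 78.6 (0.20), and POLR1C, which RNA polymerase III also uses, went from 105.0 to 115.1 (0.13). TCOF1, or treacle, a nucleolar phosphoprotein that works with UBTF, went from 138 to 162, a log2 difference of 0.23.

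Of the 6 measured genes for proteins of the modification guides, NOP58, GAR1, NOLC1 and NHP2 had log2 differences of 0.35 to 0.49, and FBL and NOP10 were close to 0. In the box C/D snoRNPs, which methylate rRNA, the scaffold gene NOP58 went from 283 to 398, a log2 difference of 0.49. FBL, the methyltransferase fibrillarin of the same particle, had 1686 and 1747, a log2 difference of 0.05. In the box H/ACA snoRNPs, which convert uridine to pseudouridine, GAR1 went from 195 to 257 (a log2 difference of 0.40) and NHP2 from 2920 to 3710 (0.35). NOP10, the smallest core protein of that particle, had 3781 and 3643, a log2 difference of -0.05. NOLC1, a chaperone of both kinds of snoRNP, went from 352 to 460 (0.39).

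Of 10 genes for small subunit processing, 9 had a difference above 0 and 2 were at least 1.5-fold higher, with a median log2 difference of 0.27. Over all genes these shares were 48.5% and 1.97%. UTP20, a very large scaffold of the early precursor, went from 63.9 to 103 (1.61-fold). NOP14, a core factor of the same particle, went from 122 to 184, which is 1.504-fold and so only just past the threshold. DDX10, an RNA helicase, went from 102 to 130 (a log2 difference of 0.36), and NOB1, the nuclease that makes the last cut of the small subunit rRNA, from 354 to 385 (0.12). RRP9, a protein of the U3 snoRNP, had 92.41 and 94.97, and RRP12, a factor for later maturation and export, had 94.4 and 95.8, so both were close to 0 on the log2 scale (0.04 and 0.02).

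UTP4, UTP15, WDR43 and WDR75 belong to the UTP-A complex, which binds the precursor first. UTP4 went from 448 to 573 (0.36 on the log2 scale) and WDR43 from 91.4 to 113 (0.31). UTP15 was dim, at 10.2 and 12.0, with a log2 difference of 0.23. WDR75 had 66.0 and 62.3, and its log2 difference of -0.08 was the lowest of all 35 genes.

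The genes for large subunit processing had the highest median log2 difference of the 6 roles, 0.41. Of these, 3 of 9 were at least 1.5-fold higher, against 1.97% of all genes. The order of the roles rests on few genes each. Of 48 further large subunit factors, listed apart and described below, 0 were at least 1.5-fold higher, and their median was 0.20. RRS1, which helps to load the RNA and proteins of the central protuberance, went from 117 to 205 (1.75-fold, percentile 99.5 of all genes). MRTO4, which holds the place of a stalk protein during assembly, went from 85.9 to 137 (1.59-fold), and NOP16 from 346 to 542 (1.57-fold). NOP2, an rRNA methyltransferase, went from 156 to 214, a log2 difference of 0.46. RRP1, another assembly factor, went from 80.6 to 107 (0.41 on the log2 scale). WDR12 and PES1 encode partners in the PeBoW complex, and WDR12 went from 143 to 182 (0.35) and PES1 from 206 to 253 (0.30). The helicase gene DDX56 went from 217 to 269 (0.30). BRIX1, an assembly factor of the early large subunit, had 44.1 and 43.5, and its log2 difference of -0.02 was the only one of the 9 below 0.

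The nucleolar proteins with several functions had a median log2 difference of 0.19 over 4 genes. NCL, or nucleolin, went from 827 to 1157, a log2 difference of 0.49. NPM1, or nucleophosmin, had 4676 and 5026, a log2 difference of 0.10, but its second probe set gave 0.50, close to NCL. The helicase gene DDX21 went from 340 to 414 (0.29), and LYAR, a nucleolar zinc finger protein, had 44.0 and 42.5 (-0.05).

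The other 5 listed genes have no value here. The probe sets of NOP56, DKC1 and BOP1 are annotated with several genes each, microRNA or small nucleolar RNA genes among them, and a probe set with several genes was not assigned. DDX18 and GNL3 are not analysed here.

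The error of a single log2 difference could be judged only from probe sets of the same gene. Among the 15 nucleolar genes with 2 or more above both medians, the 2 brightest gave an SD of 0.21, close to the 0.20 over 5599 genes of all kinds. Most nucleolar genes differed by less than 2 such SDs, which hold the spread between probes and not that between cultures. In all, 50 of 61 nucleolar probe sets above both medians had a difference above 0, 8 were at least 1.5-fold higher and 0 at least 1.5-fold lower. Such shares were not taken over all probe sets, and a gene can have several of the 61. Among genes above both medians, 49.3% had a difference above 0, 2.5% were at least 1.5-fold higher and 4.36% at least 1.5-fold lower.

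Among those 15 genes, all such probe sets lay above 0 in 8, and in 7 at least 1 did not. MRTO4 was the most even of the genes past 1.5-fold, with log2 differences of 0.67 and 0.74. UBTF was higher by every probe set, but its brightest gave 0.80 and its other 3 above both medians gave 0.35, 0.39 and 0.46. NOP16 was split, with 0.65 and 0.71 by its brighter pair and -0.03 and -0.18 by its dimmer pair (45.8 to 45.0 and 44.0 to 38.8). NPM1 had 0.50 by its second probe set (937 to 1323) and 0.02 by the one with the suffix x, against 0.10 by the brightest. TCOF1 ranged from -0.06 to 0.56, and POLR1A only from 0.20 to 0.30. RRS1, UTP20 and NOP14 had 1 probe set each, so their differences could not be compared within the gene.

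Probe sets with the suffix x, which the manufacturer marks as able to bind unrelated transcripts, mostly lacked the shift. They were 6 of the 61, and 1 of the 6 had a difference above 0, against 49 of the other 55. The exceptions without the suffix included probe sets of NOP16, TCOF1 and LYAR. For POLR1B the one with the suffix x gave -0.26 while the other 3 gave 0.24 to 0.33. For WDR12 it gave -0.13 (33.6 to 30.8) against 0.35, and for RRP1 an identical intensity of 42.9 on both arrays. None of the 6 with the suffix was the brightest of its gene, so suffix and rank within the gene cannot be told apart here. The same share over all genes was not taken. Whether cross-hybridisation has a part in these values was not tested.

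The E-box, which the choice of genes did not use, was frequent near the start sites of the nucleolar genes. Promoter windows of RefSeq (assembly GRCh38.p14), from 250 bases before the start of a transcript to 50 after, were found for 30 of the 35 genes. The E-box letters CACGTG, which read the same on both strands, were in a window of 13 of the 30 genes (43.3%). They were in a window of 10.9% of 15384 genes with a value on the arrays, and in 7.26% of all 35116 windows. Of the 21490 windows of genes with a value, 8.36% held them. Genes can have several windows, and 37 windows belonged to these 30 genes, 35.1% of which held the letters. A match is only a match of letters.

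In 10 genes the E-box lay close to the start, and these stretches are shown because the element recurs in genes with and without a difference. Each runs from base -60 to base 30, where base 1 is the first transcribed base, 5′ to 3′ on the strand of the gene, with the E-box in capitals.

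UTP20: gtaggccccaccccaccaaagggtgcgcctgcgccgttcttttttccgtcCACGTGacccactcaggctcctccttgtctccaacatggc
MRTO4: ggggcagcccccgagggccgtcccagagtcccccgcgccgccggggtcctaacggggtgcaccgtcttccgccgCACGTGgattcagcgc
NOP14: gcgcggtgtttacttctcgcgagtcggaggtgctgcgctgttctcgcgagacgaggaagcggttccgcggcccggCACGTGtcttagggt
UTP4: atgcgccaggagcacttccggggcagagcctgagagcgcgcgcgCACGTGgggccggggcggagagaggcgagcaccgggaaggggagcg
WDR43: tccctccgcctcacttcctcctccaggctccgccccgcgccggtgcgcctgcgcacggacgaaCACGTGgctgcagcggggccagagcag
PES1: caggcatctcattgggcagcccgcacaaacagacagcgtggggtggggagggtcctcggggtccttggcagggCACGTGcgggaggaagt
DDX21: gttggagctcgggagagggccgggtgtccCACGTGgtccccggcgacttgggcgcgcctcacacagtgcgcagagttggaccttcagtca
FBL: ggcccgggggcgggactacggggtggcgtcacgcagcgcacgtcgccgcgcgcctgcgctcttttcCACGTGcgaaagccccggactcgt
RRP9: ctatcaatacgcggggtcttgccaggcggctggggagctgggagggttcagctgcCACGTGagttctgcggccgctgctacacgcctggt
NOP10: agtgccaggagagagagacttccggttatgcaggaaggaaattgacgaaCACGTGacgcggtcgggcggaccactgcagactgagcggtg

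The stretch of UTP20 is chr12:101280045-101280134 on the plus strand, that of MRTO4 chr1:19251745-19251834 (plus) and that of NOP14 chr4:2963377-2963466 (minus). Those of UTP4 and WDR43, both on the plus strand, are chr16:69132589-69132678 and chr2:28894607-28894696. PES1 (chr22:30591881-30591970) lies on the minus strand and DDX21 (chr10:68956587-68956676) on the plus strand. FBL (chr19:39846350-39846439), RRP9 (chr3:51941875-51941964) and NOP10 (chr15:34343107-34343196) lie on the minus strand. The E-box began at base -10 in UTP20, at base 15 in MRTO4 and at base 16 in NOP14, and in RRP9 it covered bases -5 to 1. GAR1, NOP2 and LYAR held the letters farther from the start, at bases 32, 36 and -64, and NOP10 held them a second time at base -170.

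Nucleolar genes with and without the E-box had similar medians. The 13 genes with it had a median log2 difference of 0.31 and the 17 without it 0.33. At least 1.5-fold higher were 3 of the 13 with it (UTP20, MRTO4 and NOP14) and 2 of the 17 without it (UBTF and NOP16). RRS1, which differed most, is in neither count. Among all genes with a value and a window, 51 of 1672 with the E-box were at least 1.5-fold higher. Without the E-box 264 of 13712 were, and the median log2 differences were 0.03 with and 0 without it. FBL, RRP9, NOP10 and LYAR also held it, and their log2 differences lay between -0.05 and 0.05. The start regions of UBTF and NOP16 are shown for contrast, with the letters GGGCGG (a GC box) in capitals for UBTF and the letters CCGGAAG (an ETS factor element) for NOP16, each searched on both strands; neighbouring or opposed matches overlap in both.

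UBTF: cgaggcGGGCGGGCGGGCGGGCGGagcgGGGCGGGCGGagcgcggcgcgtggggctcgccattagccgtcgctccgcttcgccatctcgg
NOP16: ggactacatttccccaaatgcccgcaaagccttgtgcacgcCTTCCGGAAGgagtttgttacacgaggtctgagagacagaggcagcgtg

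These stretches are chr17:44220853-44220942 and chr5:176388569-176388658, both on the minus strand and also from base -60 to base 30, and UBTF has a second start that is not shown. Of the 30 genes, 21 held GGGCGG in a window (70.0%) and 12 held CCGGAAG. Of the 15384 genes with a value, 64.6% and 16.6% did. Counted by window, GGGCGG was in 62.2% of the windows of these 30 genes, against 56.7% of the windows of genes with a value. For CCGGAAG these window shares were 37.8% and 12.9%. By either element the medians also stood close together: 0.33 with and 0.30 without GGGCGG, and 0.30 with and 0.35 without CCGGAAG, all as log2 differences.

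Other genes of the pathway were taken from a textbook list of 123, of which 118 were measured. Their median log2 difference was 0.18, 90 of 118 (76.3%) had a difference above 0, 3 (2.54%) were at least 1.5-fold higher and 0 at least 1.5-fold lower. Over all genes the share above 0 was 48.5% and the share at least 1.5-fold higher 1.97%, or 2.5% of those above both medians, so the count of 3 was close to the background. The 3 were POLR1G, a subunit of RNA polymerase I, from 249 to 414 (a log2 difference of 0.73), NAT10, which acetylates rRNA, from 114 to 179 (0.65), and the helicase gene DHX37 from 76.8 to 118 (0.62). The E-box letters were in a promoter window of 30 of the 101 further genes with a window (29.7%), these 3 included, and the median log2 differences were 0.22 for the 30 genes with it and 0.17 for the 71 without it. The 47 further small subunit factors and the 48 further large subunit factors had medians of 0.21 and 0.20, and 13 exosome genes, which trim rRNA ends, had 0.15. The 10 further factors of RNA polymerase I had a median of -0.02 with 4 of 10 above 0, while all 6 described above had differences above 0.

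The genes for proteins of the ribosome itself had a median slightly below 0. Of 53 measured genes of cytosolic ribosomal proteins, 0 were at least 1.5-fold higher or lower, against 1.97% and 3.52% of all genes. A difference above 0 was seen for 13 (24.5%), against 48.5% of all genes, and the median log2 difference was -0.06. With probe sets of the suffixes x and s left out, 13 of 30 were above 0, against 8191 of 17100 of all genes. The gap to all genes was thus much smaller under that choice. In the main values, RPL36, with -0.23, RPL27A (-0.19) and RPL18 (-0.18) differed most among the cytosolic genes above both medians. RPL36 had 5587 and 4776, and RPL18 had 7618 and 6744. RPL27A was far dimmer, at 207 and 182, by its 1 probe set that is not also annotated to other genes. These differences were within the SD of 0.20 between probe sets or just past it, and 26 of the 79 listed genes were not measured here. RPL37A, for example, had 14348 and 14182, where the highest value of any probe set was 17938 and 17627, and whether such intensities narrow a difference was not tested.

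**Figure D2:**
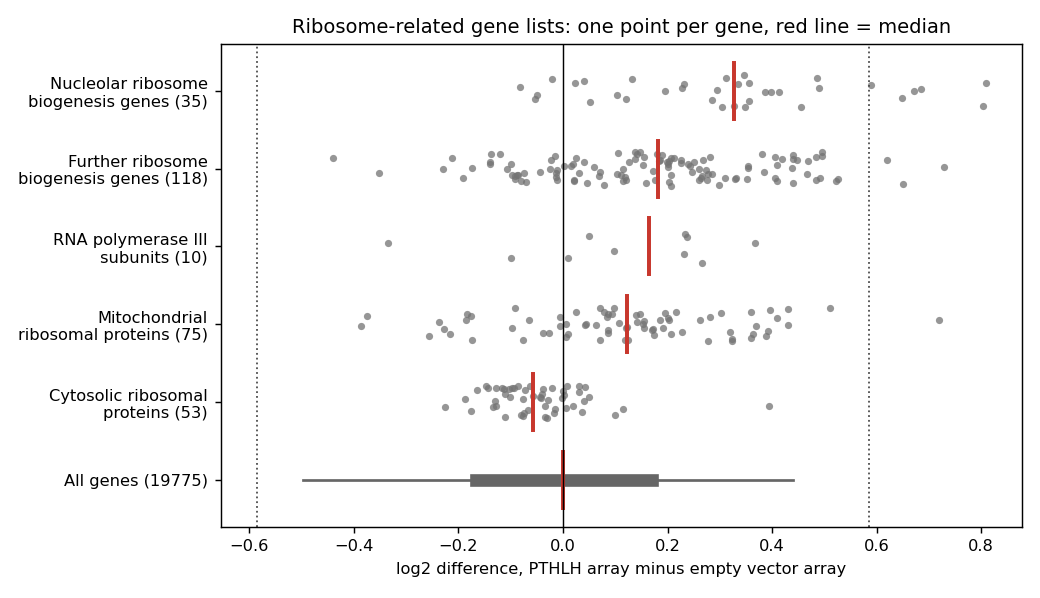
Log2 ratio of the PTHLH to the empty vector array, 1 grey point per measured gene, of 5 ribosome-related lists, with the median in red, the number of genes in brackets and 1.5-fold dotted. For all 19775 genes the thick bar runs from percentile 25 to 75 and the thin bar from percentile 5 to 95; the medians run from 0.33 for the nucleolar genes to -0.06 for cytosolic ribosomal proteins.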

How the data were processed

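Ca9-22 cells carrying the empty or the PTHLH vector were measured with 1 Affymetrix U133 array per group. Intensities were deposited by the authors on a linear scale. Their background correction, normalization and summary over probes: not given in the sources used here, and how these steps act on small differences was not tested. Samples were grouped by the expression label. Probe sets took gene names from GEO's platform annotation, brought up to date by gene identifier (assembly GRCh38.p14). The 41097 probe sets with 1 symbol were used, and the 1801 with several and the 11777 unnamed here were left out.

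Differences are log2 of the PTHLH intensity minus log2 of the empty vector intensity, with no added normalization. A gene took its brightest probe set (highest mean log2 value). Counts used a 1.5-fold threshold. The number of arrays limits the precision. No test was run. The members and the gene lists were chosen with earlier results of these data known. Named were all members and, of each other list, the 3 genes with the largest absolute difference above both array medians. Markers and the genes of complexes and helicases in the closing section were named outside this rule, the latter after their values were seen. Promoter windows came from RefSeq. The method was tested on simulated data. The planted changes there were 2-fold, larger than the differences of the nucleolar genes. The simulated noise was the same at every intensity and smaller than the SD between probe sets of these arrays. How well shifts as small as those of the nucleolar genes are recovered was therefore not tested. The alternatives were quantile normalization, centring on brighter probe sets, the median or largest change over probe sets, dropping dim probe sets, setting a floor at percentile 40, leaving out the suffixes x and s, and a 2-fold threshold. Centring subtracted 0.0, so its values equal the main ones and count among the unmoved values below. Python 3.11.15, pandas 2.3.3, numpy 2.4.6 and matplotlib 3.10.9 were used.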

Additional observations from a re-analysis of the deposited data

How the results depend on the processing

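The 6 nucleolar genes at least 1.5-fold higher kept a positive difference under every alternative in which they had a value. They stayed past 1.5-fold, except for NOP14 (0.58, against a threshold of 0.585) under quantile normalization and for UBTF (0.46) and NOP16 (0.31) under the median over probe sets, where 4 of 6 remained and the median of the 35 genes was 0.25 in place of 0.33. With the suffixes x and s left out, 28 of the 35 genes had a value, NOP14 not among them, and 5 were past 1.5-fold. At a 2-fold threshold the counts higher were 0 for the nucleolar genes, 0 for the further ribosome biogenesis genes and 0 for mitochondrial ribosomal proteins. Taking the most changed probe set, 1 nucleolar gene was lower, PES1 at -0.83 by a dim probe set. Under the same choice the further genes had 7 higher, 1 lower and a median of 0.25, cytosolic ribosomal proteins 1 higher and a median of -0.10, mitochondrial ribosomal proteins a median of 0.16, and RNA polymerase III subunits 1 lower and a median of 0.074. With the median over probe sets the further genes had a median of 0.14 and RNA polymerase III subunits 0.012. Without the suffixes x and s, 34 of 44 mitochondrial ribosomal protein genes were above 0, fewer because fewer genes had a value. Of cytosolic ribosomal protein genes, 13 of 30 were then above 0, in place of 13 of 53, with a median of -0.043. Their count is among the unmoved values, but their share above 0 rose. The other 134 of 150 values of lists moved by less than the SD between probe sets divided by the square root of the number of genes (medians) or by at most 1.5 times (counts). Over all genes, calls fell from 390 higher and 696 lower to 248 and 444 with the median over probe sets and grew to 689 and 984 with the largest change. No paired analysis was possible because each group has 1 array.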

Other observations

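Some complexes of the pathway, and the genes named from them, were picked after their values had been seen, so these values are descriptions only. The 6 genes of UTP-A (UTP4, UTP15, WDR43, WDR75, HEATR1 and NOL11) had a median log2 difference of 0.33 and those of UTP-B, the complex that joins next (PWP2, TBL3, WDR3, WDR36, UTP6 and UTP18), of -0.002, with a range from -0.44 for TBL3, whose other probe set gave 0.35, to 0.48 for UTP18. The 5 genes of the Rix1 group (PELP1, TEX10, SENP3, LAS1L and NOL9) all lay between 0.21 and 0.50. RRS1 had a log2 difference of 0.81 and RPF2, its partner in loading, of -0.08. UBTF had 0.80, while TAF1A, TAF1B, TAF1C and TAF1D, of the selectivity factor that it recruits, lay between -0.35 and -0.02. The lowest of these, TAF1A, was below both array medians (17.2 and 13.5), and the other three lay between -0.08 and -0.02. The 12 measured RNA helicase genes of the DEAD and DEAH box families in both lists all had differences above 0 by their brightest probe sets, from 0.002 for DDX24 to 0.62 for DHX37. Over all genes the share above 0 was 48.5%. Probe sets above both medians ranged from -0.20 to 0.79 for DDX49 and from -0.03 to 0.34 for DDX54.

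Mitochondrial ribosomal protein genes had a median log2 difference of 0.12 over 75 genes, with 57 above 0 (76.0%, against 48.5% of all genes). At least 1.5-fold higher was 1 gene (1.33%), against 1.97% of all genes. MRPL15 went from 179 to 295 (1.65-fold, the only one past 1.5-fold), MRPL18 from 444 to 633 and MRPS23 from 144 to 193. The 10 subunit genes of RNA polymerase III had a median of 0.16, with POLR3E at 0.37, POLR3GL at -0.33 and POLR3K at 0.27 the farthest from 0.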
